A study of Mus musculus with 6 samples.

Results

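Heat shock proteins and their partners fold, hold and refold other proteins, and 32 of the 54532 mouse genes counted in each library belong to this set here. They were taken by gene name from a list that was drawn up with earlier results of these data known: 3 cytosolic HSP70 genes, 4 genes whose products drive nucleotide exchange on HSP70, 5 J-domain co-chaperones, 2 HSP90 genes, 4 HSP90 co-chaperones, 3 small heat shock proteins, 7 subunits of the cytosolic chaperonin TRiC, 3 mitochondrial chaperones and the transcription factor Hsf1. Although the set was put together as cytosolic, Hspa9, Hspd1 and Hspe1 encode proteins that act in mitochondria.

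RNA came from YAMC cells, an established line described as young adult mouse colonic epithelium of wild-type genotype, made from a mouse with a thermolabile SV40 large T antigen (tsA58) driven by the H-2Kb promoter, which interferon-gamma induces. All 6 libraries came from cells kept at 33 °C with interferon-gamma, so both groups carry the transgene under conditions meant to keep it active. Its activity in these libraries was not examined. Cells of 3 libraries had received 2'-fucosyllactose (2'-FL), a milk oligosaccharide, at 20 µg/ml for 6 h; the 3 control libraries came from untreated cells, for which no time is given. The study asked whether 2'-FL acts directly on intestinal epithelial cells.

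Chaperones of the HSP70 and HSP90 families bind unfolded or nearly mature client proteins in cycles of ATP hydrolysis, J-domain proteins bring clients to HSP70, and TRiC is a barrel-shaped complex that folds actin and tubulin among others. In unstressed cells HSF1 is held back, and on heating it forms trimers, binds heat shock elements and drives the inducible chaperone genes. Many chaperones are also made all the time, and some genes exist as a constitutive and a heat-inducible copy, such as Hspa8 beside Hspa1a and Hspa1b, or Hsp90ab1 beside Hsp90aa1. By this textbook behaviour the 32 genes were sorted into 11 inducible, 7 present at rest and raised further by heat, 13 constitutive, and Hsf1.

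The heat shock element is a row of GAA units in alternating direction, and it was searched in promoter windows of 300 bases, of which 50 lie after the start, from RefSeq on GRCm38.p6. Windows were found for 25 of the 32 genes; there were none for Hspa8, Hspa9, Hsp90aa1, Hsp90ab1, Cryab, Hsf1 and Cct4. The 2-unit motifs GAANNTTC and TTCNNGAA each read the same on both strands, and the 3-unit motifs GAANNTTCNNGAA and TTCNNGAANNTTC are each other's reverse complement, so both strands were covered. Every 3-unit match contains overlapping 2-unit matches. At least one 2-unit motif was present in 15 of the 25 genes (60.0%), against 17.0% of 27025 genes with a window. By class, 8 of 9 inducible genes, 4 of 7 raised further by heat and 3 of 9 constitutive genes held one. A 3-unit motif was present in 5 of the 25 (20.0%), namely Hspd1, Hspe1, Dnajb6, Hsph1 and Chordc1, against 0.662% of the genes with a window. Such matches describe letters and do not show binding.

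The pair Hspa1a and Hspa1b is shown first. Their counted levels below differ much, with limits on these counts given there. The 120 bases before their starts are nearly the same letters. The capitals mark the 2-unit motif. These are chr17:34972157-34972276 and chr17:34959239-34959358, both on the minus strand.
Hspa1a: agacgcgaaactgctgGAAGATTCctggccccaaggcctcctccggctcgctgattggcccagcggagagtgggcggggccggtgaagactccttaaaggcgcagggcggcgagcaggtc
Hspa1b: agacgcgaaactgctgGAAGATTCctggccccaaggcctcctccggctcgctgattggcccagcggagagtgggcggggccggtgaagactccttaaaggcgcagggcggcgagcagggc
These stretches are identical at 119 of 120 bases, and over the 250 bases before each start 247 are identical.

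The 5 genes with a 3-unit motif are shown at 4 sites, since Hspd1 and Hspe1 lie head to head and share one. The capitals mark all motif units at each site: chr1:55088053-55088082 on the plus strand, between Hspd1 and Hspe1; chr5:29735844-29735872 on the plus strand; chr9:18292260-18292288 on the plus strand, across the start; and chr5:149636287-149636308 on the minus strand, just after the start.
Hspd1 and Hspe1: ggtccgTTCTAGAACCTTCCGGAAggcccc
Dnajb6: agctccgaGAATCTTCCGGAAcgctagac
Chordc1: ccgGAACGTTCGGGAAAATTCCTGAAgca
Hsph1: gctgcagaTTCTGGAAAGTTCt
The shared site lies 89 to 72 bases before the start of Hspe1. The site of Chordc1, an HSP90 co-chaperone also called morgana, holds the longest unbroken row of units among the 4 sites.

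Total counts ranged from 19978583 to 25251187 per library. Separate cultures are not stated for the replicates; the p-values therefore rest on the spread among these libraries alone, and that spread may be technical. Of the 8 epithelial markers checked, Krt8, Krt18 and Krt19 were abundant, but Epcam, Cdh1, Vil1 and Lgals4 averaged under 1 CPM (counts scaled to a common library size) and Cdx2 had no count in any library. Of the 6 fibroblast markers, Col1a1, Col3a1 and Dcn were abundant and Lum had no count. In bulk RNA, fewer cells of a type and less RNA per cell cannot be told apart. On the first principal component, with 30.9% of the variance, 2'-FL replicate 2 stood apart from the other libraries, and control replicate 1 did so on the second, with 22.3%.

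The first question was how high each chaperone transcript stood in cells at 33 °C. Levels between genes are compared per length, as TMM-scaled CPM per kilobase of the gene's exons (FPKM), over all 6 libraries with SD. As counted, the cells held large amounts of HSP90 and constitutive HSP70 messages and little of the inducible HSP70 pair. Hspa8, Hsp90aa1, Hspa1a and Hspa1b share stretches with other genes (below), and how far this moved their levels was not tested. Hsp90ab1, the constitutive cytosolic HSP90, was highest at 835 ± 41.4 FPKM. Hspa8, the constitutive HSP70 (HSC70), followed at 475 ± 18.6 FPKM. Next came Hsp90aa1, the heat-inducible HSP90, at 380.4 ± 21.2 FPKM. These steps and the next one down exceeded the sum of the SDs of the neighbours.

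Below them the order was close. Cryab, Hspd1, Stip1, Cct2, Hspa9, Hspb1 and Cct8 lay between 185 and 124 FPKM, and each step among these 7 was within the SDs of its neighbours. Cct5, Dnaja2 and Hspe1 (92.9, 88.6 and 83.4 FPKM) likewise did not separate. Hspa4 stood alone at 65.7 FPKM, and Hspb8, Tcp1 and Cct4 lay together at 59.0, 58.8 and 58.6 FPKM. Dnaja1, Fkbp4 and Cct7 (52.9, 52.8 and 49.2 FPKM) formed another such trio. Cct3, Dnajb1 and Bag3 stood apart in turn at 41.9, 32.9 and 27.4 FPKM, ahead of Dnajb6, Hsph1 and Ahsa1, which did not separate at 23.6, 23.3 and 19.5 FPKM. Chordc1 followed at 13.03 FPKM, and Hsf1 at 6.997 and Dnajb4 at 6.53 FPKM did not separate. At the foot of the order stood Hspa1b at 4.86 ± 0.38 FPKM, Hspa4l at 3.61 ± 0.304 FPKM and Hspa1a at 0.227 ± 0.105 FPKM. The exon length covers all isoforms, and the groups between the ends of the order depend on it. With the longest annotated transcript in its place the first 4 genes and the last 6 kept their order, while Dnajb6 moved to 49.0 FPKM. Hspa4 then stood at 78.7 ± 4.33 FPKM, close to Cct3 at 80.0 ± 2.71 FPKM. Hspb8, Tcp1 and Cct4 no longer lay together, at 63.3, 86.4 and 99.2 FPKM.

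**Figure D1:**
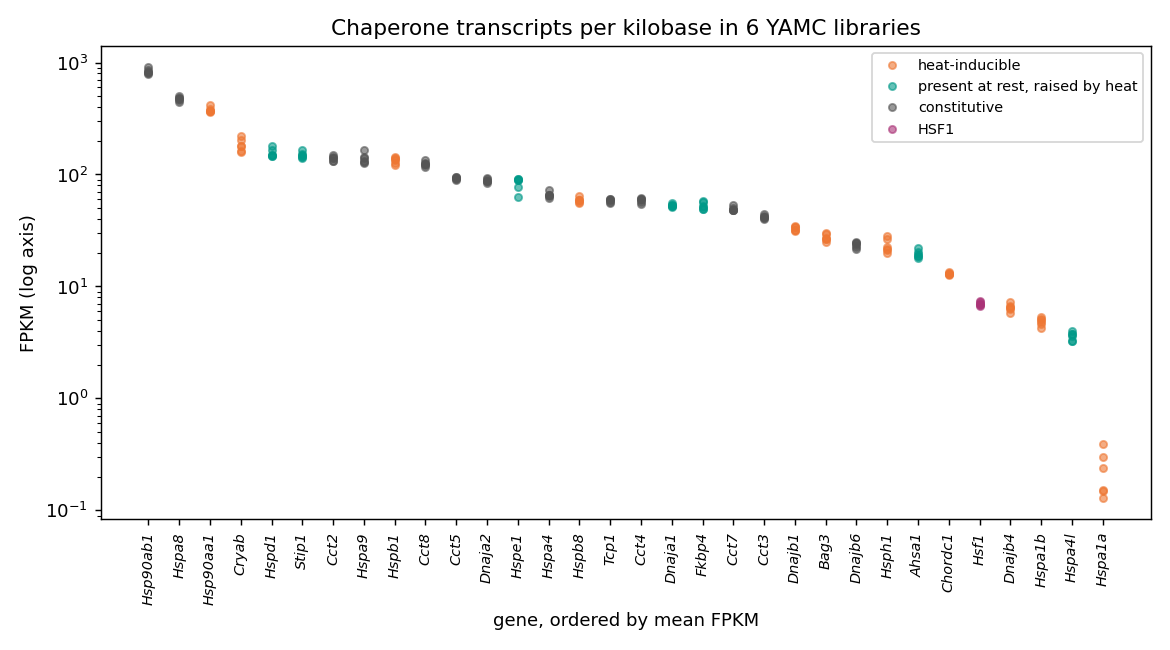
Level of each of the 32 genes in FPKM on a log axis, ordered by mean, with 1 point per library and colour for the class. Inducible genes span from Hsp90aa1 near the top at 380.4 FPKM to Hspa1a at the foot at 0.227 FPKM, and the points of most genes lie close together.

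As classes, the inducible genes had a median level of 27.4 FPKM, those raised further by heat 52.9 FPKM and the constitutive ones 88.6 FPKM. The classes overlapped widely: 5 of 11 inducible genes and 12 of 13 constitutive genes exceeded 30 FPKM. Among the inducible genes, Hsp90aa1, Cryab, Hspb1 and Hspb8 were abundant without heating. With the longest transcript as length the class medians were 35.2, 81.1 and 99.2 FPKM, in the same order.

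HSP70 genes differed most between constitutive and inducible copies. Hspa8 measured 2036, 2154 and 2004 CPM in 2'-FL replicates 1 to 3 and 2072, 2069 and 1915 CPM in control replicates 1 to 3, and the groups overlapped. Hspa1b, an inducible HSP70, measured 15.1, 14.3 and 13.6 CPM after 2'-FL against 12.9, 12.0 and 14.0 CPM in untreated cells, also overlapping. Per length, the level of Hspa8 was 98.1 ± 9.16 times that of Hspa1b (SD, n = 6), and between 88.0 and 112 times in single libraries. With the longest transcript as length it was between 120 and 152 times, with a mean of 134 ± 12.5 times that of Hspa1b. Hspa1a, its neighbour, had only 9, 22 and 9 counts with 2'-FL and 14, 25 and 9 counts in controls. That is 0.384, 0.888 and 0.450 CPM against 0.707, 1.17 and 0.446 CPM, too few to tell the libraries apart with any precision. Reads of the pair are partly interchangeable. Of the 100-base stretches of Hspa1a, 47.1% also occur in Hspa1b, and 49.9% of those of Hspa1b occur in Hspa1a. How such reads were assigned is not given, so the split between the 2, their total and the ratio of Hspa8 to Hspa1b are uncertain. Gm20481, on the opposite strand, overlaps 2225 bases of Hspa1a and held 0 counts. Whether counting used strand is not given, and the part of this overlap in the level of Hspa1a was not tested. Hspa8 shares 63.4% of its stretches with other genes, mostly Gm15459. All genes sharing them held 320 counts against 264943 for Hspa8. Any reads left out for matching several genes would appear in neither count.

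For Hspa8 and Hspa1b the log2 fold changes of 2'-FL minus control were 0.03 ± 0.07 and 0.14 ± 0.11 (SE), with 95% intervals of -0.11 to 0.17 and -0.10 to 0.39. In edgeR's quasi-likelihood test their adjusted p-values were 0.938 and 0.801. For Hspa1a the estimate was -0.42 ± 0.51, with an interval from -1.51 to 0.67 (adjusted p = 0.877), and it came to 0.01 without control replicate 2. None of these values separates the groups, and the interval of Hspa1a is the widest of the 32.

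The test over the whole table frames every difference below. edgeR called 0 of 14129 genes at an adjusted p under 0.05 (0%), with 1116 (7.90%) at an unadjusted p under 0.05; DESeq2 called 37 (0.325% of the 11389 it gave an adjusted p) and limma-voom 0 (0%). Each of the 32 chaperone genes passed the filter on low counts, and 0 of 32 passed the test in any of the 3 tools. DESeq2 gave Hspa1a no adjusted p. At an unadjusted p under 0.05 stood 2 of 32 in edgeR, Cryab and Bag3, which as a share is close to the 7.90% of all genes. The estimate was above 0 for 24 and below 0 for 8, where 48.4% of all genes were above 0 and 51.6% below. The median log2 fold change was 0.04 over the 32 genes and -0.01 over all genes. The 2 groups did not overlap for 2 genes, Bag3 and Dnajb4, both with 2'-FL above control, beside 6.74% of all genes in that direction and 6.31% in the other.

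The direction of the set depended in part on 1 library. 2'-FL replicate 2 held the highest value for 20 of the 32 genes, against 22.2% of all tested genes that were highest there. Control replicate 3 held the lowest value for 13 of 32, against 17.3% of all tested genes. Without 2'-FL replicate 2 the median log2 fold change was 0.0018, with 18 genes above 0 and 14 below. Without both it and control replicate 1, 22 of the 31 genes tested were above 0 and 9 below, with a median of 0.026. Of all genes, 50.1% were then below 0. Estimates that kept their sign also shrank without 2'-FL replicate 2 alone, such as those of Hspa8 (0.00038), Stip1 (0.00025), Hspb8 (0.019), Cct2 (0.053) and Dnajb6 (-0.0095). The 32 genes took 1.205, 1.287 and 1.195% of all counts with 2'-FL and 1.228, 1.206 and 1.178% in controls, so that replicate 2 was again the highest and the other libraries of both groups overlapped. Median deviations of transcripts shorter than 1500 bases also moved in that library, to -0.07 on the log2 scale, and reached 0.09 in control replicate 2. Their part in the chaperone values was not tested.

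**Figure D2:**
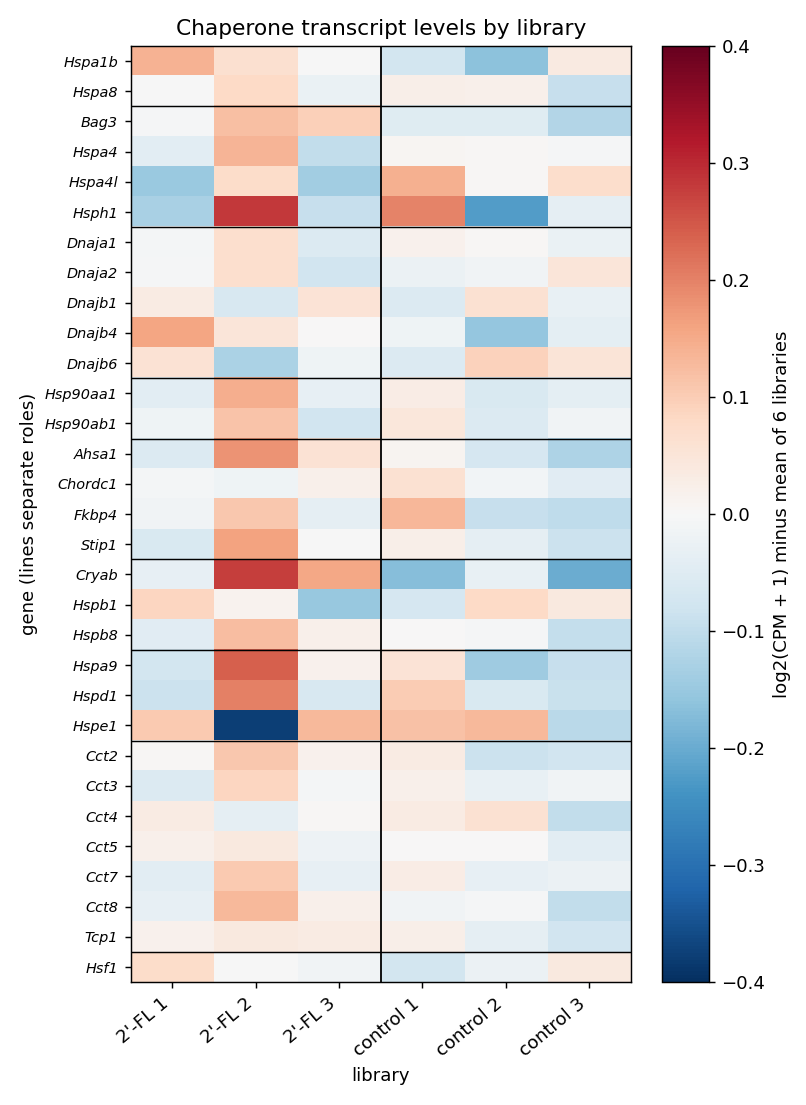
Deviation of each gene's log2(CPM + 1) from its mean over the 6 libraries, with genes in rows grouped by role and libraries in columns, and red for above and blue for below the mean. Hspa1a is left out because of its low counts. The column of 2'-FL replicate 2 is mostly red, with Hspe1 as its darkest blue cell, and the column of control replicate 3 is mostly blue.

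Among the partners that release ADP from HSP70, Hspa4, Hspa4l and Hsph1 are large HSP70-like exchange factors (the HSP110 family), and Bag3 is a stress-induced exchange factor that also guides clients to autophagy. Bag3 measured 69.9, 76.4 and 74.9 CPM after 2'-FL against 67.8, 67.8 and 64.6 CPM in untreated cells. All 3 libraries with 2'-FL lay above all 3 controls. Its log2 fold change was 0.14 ± 0.07 (SE, 95% interval from 0 to 0.29), with an unadjusted p of 0.0499 and an adjusted p of 0.632 in edgeR, so it did not pass. Its unadjusted p lay between 0.0331 and 0.14 over the alternatives and exceeded 0.05 in several of them, DESeq2 among these.

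Hspa4l had the smallest p of the genes below 0. It measured 38.3, 44.7 and 38.5 CPM after 2'-FL against 47.0, 42.6 and 44.6 CPM in untreated cells. Replicate 2 of 2'-FL lay among the controls and the other 2 below them, at a log2 fold change of -0.14 ± 0.08 (SE; adjusted p = 0.718 in edgeR). Without that library the estimate was -0.22.

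Hsph1 varied most between libraries among the 32 genes apart from Hspa1a, with a coefficient of variation (CV, SD over mean) of 14.2% over the 6 libraries. It measured 153, 205 and 158 CPM after 2'-FL against 193, 144 and 164 CPM in untreated cells. The highest value was in 2'-FL replicate 2 and the next in control replicate 1, the same 2 libraries that lay apart on the components. Its estimate of 0.04 ± 0.11 (adjusted p = 0.954 in edgeR) turned to -0.10 without 2'-FL replicate 2 and came to 0.16 without control replicate 1. Hspa4, its constitutive relative, ranged from 339 to 399 CPM, and its level per length was 2.85 ± 0.31 times that of Hsph1. With the longest transcript as length this ratio was 2.24 ± 0.24.

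J-domain proteins stimulate the ATPase of HSP70. Dnajb1 (HSP40), the stress-inducible partner of HSP70, measured 108, 101 and 109 CPM after 2'-FL against 101, 110.0 and 103 CPM in untreated cells. Its groups overlapped throughout, with a log2 fold change of 0.01 ± 0.07 (adjusted p = 0.978 in edgeR). Dnajb4 measured 63.8, 59.2 and 57.2 CPM after 2'-FL against 56.5, 51.3 and 55.6 CPM in untreated cells. These groups did not overlap, although the gap between 57.2 and 56.5 CPM was far below the SD of either group (3.39 and 2.79 CPM). Its log2 fold change was 0.14 ± 0.07 (unadjusted p = 0.0752, adjusted p = 0.692 in edgeR). Dnajb6, which keeps aggregation-prone proteins soluble, was among the 3 smallest p-values below 0 with 149, 131 and 141 CPM against 137, 152 and 148 CPM. There the groups overlapped, at -0.06 ± 0.07 (adjusted p = 0.878 in edgeR). Dnaja1 and Dnaja2, general partners of HSC70, ranged from 439 to 477 CPM and from 249.6 to 276 CPM and showed no separation. Dnaja1 shares 24.0% of its stretches, matched on both strands, with genes that held 16296 counts against its 59172. Smu1, on the opposite strand, overlaps 608 bases of Dnaja1 and held 15915 counts.

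Within the set, the HSP90 genes and Hspa8 were the most abundant. Hsp90ab1 measured 2473, 2711 and 2373 CPM after 2'-FL against 2585, 2408 and 2478 CPM in untreated cells. Hsp90aa1 measured 1450.5, 1653 and 1459 CPM after 2'-FL against 1526, 1431 and 1455 CPM in untreated cells. In both, 2'-FL replicate 2 was highest and the rest of the groups overlapped. Their log2 fold changes were 0.02 ± 0.07 and 0.05 ± 0.07 (SE), with intervals of -0.13 to 0.17 and -0.10 to 0.20, and both estimates were below 0 without 2'-FL replicate 2 (-0.04 and -0.02). The ratio of the constitutive to the inducible gene hardly moved: per length it was 2.20 ± 0.0444 (SD, n = 6) and stayed between 2.13 and 2.24 in single libraries. A share of 47.5% of the stretches of Hsp90aa1 occurs in other genes, which held 1069 counts against 194184 for Hsp90aa1 itself. These counts do not show whether reads matching several genes were left out.

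The HSP90 co-chaperones showed no separation either. Stip1 (HOP), which links HSP70 to HSP90, ranged from 306 to 363 CPM. Fkbp4 (FKBP52), an immunophilin of steroid receptor complexes, ranged from 137 to 162 CPM, and Ahsa1 (AHA1), the activator of the HSP90 ATPase, from 78.1 to 96.5 CPM. Ahsa1 had the largest estimate of the 4 at 0.12 ± 0.07 (adjusted p = 0.721 in edgeR), and 0.06 without 2'-FL replicate 2. Chordc1, with its row of heat shock units, was among the steadiest of the 32 genes, between 94.6 and 102 CPM with a CV of 2.57%.

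Small heat shock proteins hold unfolded proteins without ATP. Cryab, alphaB-crystallin, which also binds desmin and actin filaments in muscle, had the largest estimate above 0 and the smallest p of the 32 genes. It lies on chromosome 9 from 50751325 to 50756636 on the plus strand (GRCm38). It measured 265, 329 and 302 CPM after 2'-FL against 241, 266 and 236 CPM in untreated cells. Replicates 2 and 3 of 2'-FL lay above all controls, and replicate 1 was level with control replicate 2, so that the groups touched at that point. The means were 299 ± 31.9 and 248 ± 15.8 CPM (SD, n = 3 each). Its log2 fold change was 0.27 ± 0.08 (SE, 95% interval 0.10 to 0.44), with an unadjusted p of 0.00445 and an adjusted p of 0.43 in edgeR, and 0.164 in DESeq2.

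That estimate stayed above 0 in all 16 alternatives tried, from 0.18 to 0.35, with adjusted p-values from 0.0219 to 0.988. The lowest, 0.0219, came without a filter on low counts and was the only one under 0.05. Without 2'-FL replicate 2 it was 0.20, and without both libraries that stood apart 0.18. Summed levels of 4 smooth muscle markers (Acta2, Myh11, Cnn1 and Des) were 218, 468 and 362 CPM after 2'-FL against 189, 197 and 138 CPM in untreated cells, nearly all of it Acta2. All 4 had a higher mean with 2'-FL, 0 passed the test and Myh11 averaged under 1 CPM. Their part in the level of Cryab was not tested. Hspb2, on the opposite strand, overlaps 1030 bases of Cryab and held 586 counts against 35598, and whether counting used strand is not given.

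Hspb1 (HSP27, named HSP25 in mouse) measured 147, 139.5 and 124 CPM after 2'-FL against 132, 146 and 142 CPM in untreated cells. Hspb8 (HSP22), which works with BAG3, measured 111, 125 and 117 CPM after 2'-FL against 115, 114 and 108 CPM in untreated cells. Both overlapped between groups, with log2 fold changes of -0.03 ± 0.07 and 0.07 ± 0.07 (adjusted p = 0.946 and 0.849 in edgeR). The level of Cryab per length was 1.53 ± 0.237 times that of Hspb1 with 2'-FL and 1.23 ± 0.0646 times in controls (SD, n = 3 each), and these ratios overlapped, with 1.26 in 2'-FL replicate 1 and 1.28 in control replicate 1. Over all 6 libraries the ratio was 1.38 ± 0.225, and 1.65 ± 0.269 with the longest transcript as length.

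**Figure D3:**
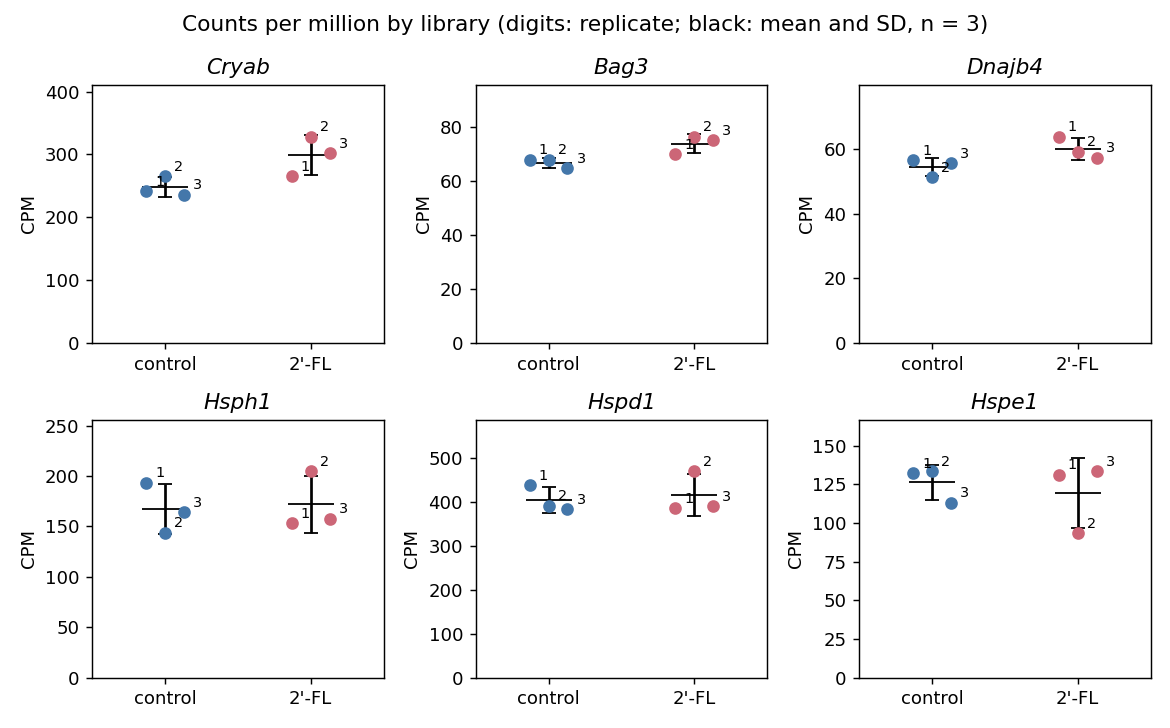
CPM of Cryab, Bag3, Dnajb4, Hsph1, Hspd1 and Hspe1 by group, from an axis that starts at 0, with 1 point per library numbered by replicate and a bar for mean and SD (n = 3). The groups are apart in Bag3 and Dnajb4, touch in Cryab and overlap in the others, where 2'-FL replicate 2 is highest for Hsph1 and Hspd1 and lowest for Hspe1.

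TRiC is built of 8 different subunits in each ring, and 7 of their genes are in the set. Tcp1, which encodes the first subunit, measured 299, 304 and 302 CPM after 2'-FL against 299.999, 288 and 280.3 CPM in untreated cells. Control replicate 1 lay within the 2'-FL group and the other controls below it, at a log2 fold change of 0.06 ± 0.06 (adjusted p = 0.852 in edgeR). Tcp1 shares 20.2% of its stretches with Acat3, which overlaps 1255 bases of it on the opposite strand and held 31 counts. The 2 genes that share any of these stretches together held 11804 counts against 38317 for Tcp1. How reads from shared stretches were assigned is not given. The estimates of all 7 were above 0, with a median of 0.03 and the highest at 0.09 for Cct2. For Cct4 the estimate was 0.00057, and it was below 0 when scaled by library total or with a filter of 1 CPM in 3 libraries. Those of Cct3 and Cct7 were below 0 without 2'-FL replicate 2. With Cct6a, the subunit outside the set, the 8 levels per length spanned from 41.9 FPKM for Cct3 to 140.0 FPKM for Cct2, a ratio of 3.34, or 2.28 with the longest transcript as length. Cct5 was the steadiest of all 32 genes, with a CV of 2.0%, and the median CV of the 7 was 3.97%. The median CV was 5.54% over the 32 genes and 7.0% over the 9592 tested genes with at least 10 CPM.

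The 3 mitochondrial chaperones are Hspa9 (mortalin), the HSP70 of the matrix, Hspd1 (HSP60) and its lid Hspe1 (HSP10). Hspd1 measured 386, 471 and 391 CPM after 2'-FL against 439.6, 392 and 384 CPM in untreated cells. Hspe1 measured 131, 93.6 and 134 CPM after 2'-FL against 132, 133 and 113 CPM in untreated cells. Hspd1 was highest and Hspe1 lowest in the same library, 2'-FL replicate 2, although the genes share the promoter region shown above. The ratio of Hspd1 to Hspe1 per length was 2.81 there and between 1.63 and 1.90 in the other 5 libraries. With the longest transcript as length its mean was 1.36 ± 0.323 over all 6 libraries, and it was 2.00 in 2'-FL replicate 2. The longest coding transcript of Hspe1 is 774 bases and that of Hspd1 2423 bases, and shorter transcripts were lower in that library (above); the part of length in the ratio was not tested. Hspe1 shares 22.4% of its stretches with 2 other genes, and 20.4% with AC117239.2. Together these 2 genes held 53354 counts, the same number as Hspd1 alone, against 15815 for Hspe1. Hspe1 overlaps Hspd1 by 112 bases. Neither gene separated the groups, with estimates of 0.04 ± 0.08 and -0.08 ± 0.11 (adjusted p = 0.942 and 0.894 in edgeR). Without that library both signs turned, to -0.06 and 0.07. Hspa9 ranged from 496 to 646 CPM, with an estimate of 0.13 ± 0.08 (adjusted p = 0.75 in edgeR) that was 0.03 without the same library and 0.19 without control replicate 1.

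Hsf1, the regulator itself, measured 52.3, 49.5 and 49.2 CPM after 2'-FL against 47.1, 48.8 and 51.1 CPM in untreated cells. Its groups overlapped at a log2 fold change of 0.04 ± 0.07 (adjusted p = 0.932 in edgeR). The transcript level says nothing of HSF1 activity, which depends on the protein's state.

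By class, the estimates were above 0 for 8 of 11 inducible genes, 5 of 7 raised further by heat and 10 of 13 constitutive genes, with medians of 0.05, 0.04 and 0.02. The classes thus lay close to one another, and the difference between them was not tested. Both genes at an unadjusted p under 0.05 in edgeR and both that did not overlap were inducible ones, though these come to only 3 genes, Cryab, Bag3 and Dnajb4.

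**Figure D4:**
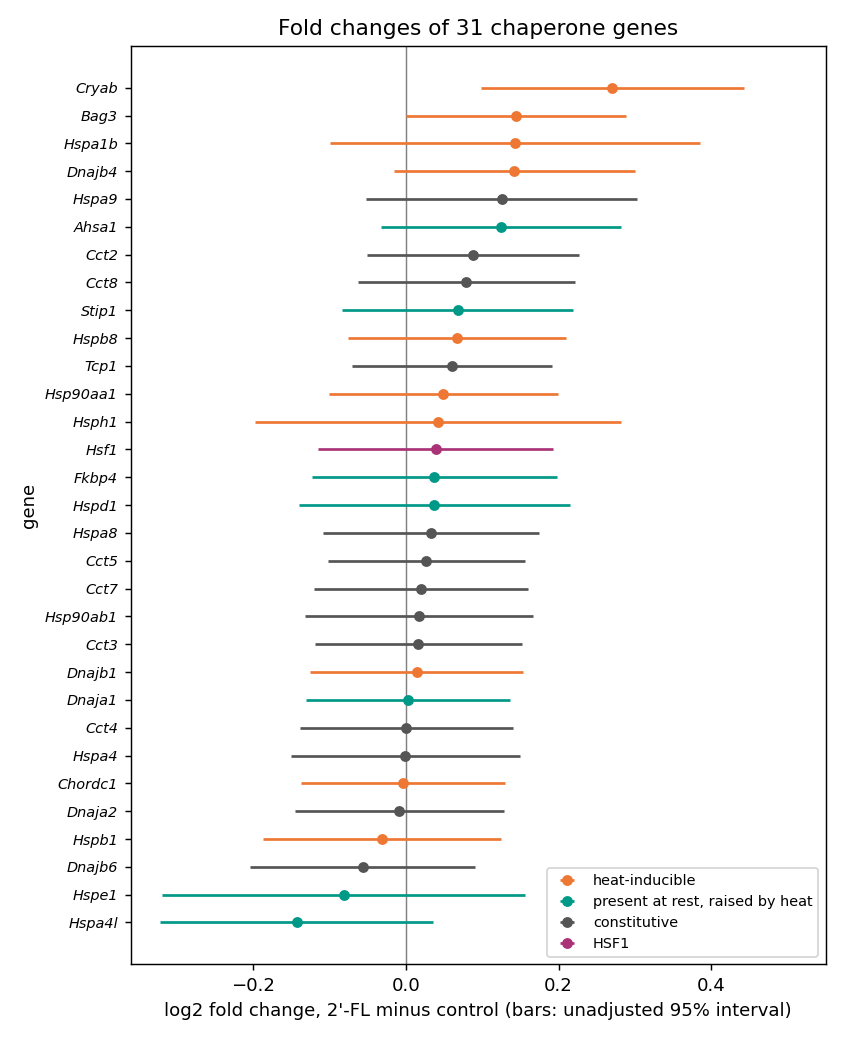
Log2 fold change of 2'-FL minus control for 31 genes (points) with unadjusted 95% intervals (bars), coloured by class and ordered by size; Hspa1a, with an interval from -1.51 to 0.67, is left out. The intervals of Cryab and Bag3 lie above 0, that of Bag3 only just, and the others include 0.

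**Figure D5:**
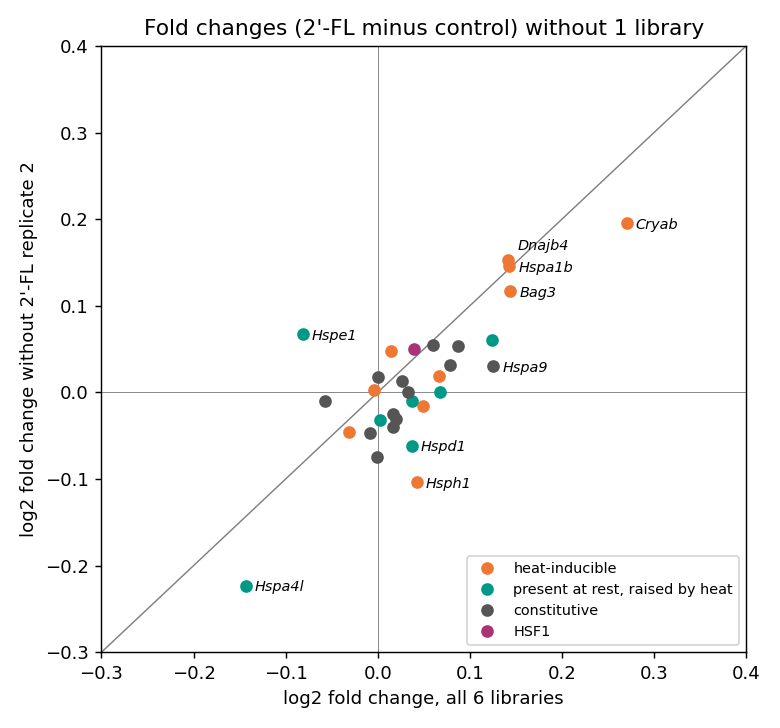
Log2 fold change without 2'-FL replicate 2 (vertical) against that over all 6 libraries (horizontal) for 31 genes, coloured by class, with a diagonal where both are equal. Most points lie below the diagonal, and Hspe1 lies above it. Cryab, Bag3, Dnajb4 and Hspa1b stay above 0 on both axes, as do genes of the other classes, such as Cct2 and Ahsa1.

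Other chaperone genes, 89 in 8 lists, were counted beside the set, and 83 passed the filter on low counts. In edgeR 0 of 83 passed and 3 stood at an unadjusted p under 0.05, against 7.90% of all genes. Estimates were above 0 for 58 and below for 25, with a median of 0.03, against 48.4% of all genes above 0. The groups did not overlap for 8 with 2'-FL above control and 2 below, against 6.74% and 6.31% of all genes. 2'-FL replicate 2 was highest for 38 of the 83, and without it 50 estimates were above 0 and 33 below, with a median of 0.0093 and 0 passing. From each list the 2 tested genes with the smallest p are given, as values that did not pass. Among HSP90 co-chaperones, Ppp5c, a phosphatase, averaged 75.9 ± 5.37 CPM after 2'-FL against 66.5 ± 6.29 CPM in untreated cells, and Fkbp5, an immunophilin, 67.3 ± 4.86 and 60.0 ± 2.73 CPM (SD, n = 3 each). Their log2 fold changes were 0.19 ± 0.08 and 0.17 ± 0.07, with edgeR adjusted p-values of 0.587 and 0.61. In the endoplasmic reticulum, where 11 of 13 genes were above 0, Dnajb11 averaged 196 ± 16.4 and 173 ± 12.2 CPM (0.18 ± 0.08) and Canx, the lectin chaperone calnexin, 1079 ± 84.1 and 990.4 ± 33.1 CPM (0.12 ± 0.07). 2'-FL replicate 2 was highest for 11 of these 13, and without it 8 of 13 were above 0. Without it the estimates of Ppp5c, Fkbp5, Dnajb11 and Canx were 0.13, 0.10, 0.11 and 0.06.

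In the other lists the estimates were 0.15 for Hspbp1 and 0.12 for Hspa2 among HSP70 genes and exchange factors, -0.13 for Dnajc13 and 0.13 for Dnajb5 among J-domain genes, and 0.15 for Clpb and -0.11 for Grpel1 among mitochondrial ones. Prefoldin and chaperonin genes gave -0.14 for Pfdn5 (0.04 without 2'-FL replicate 2) and 0.07 for Pdcl3, and genes around HSF1 gave -0.10 for Ier5 and 0.09 for Hsf2. Of the 6 other small heat shock genes only Hspb6 (-0.09, or -0.19 without that library) and Hspb2 (-0.04, or -0.23) were tested, each near 4 CPM, while Hspb3 and Cryaa had no count in any library, which allows up to 3 counts, or 0.15 CPM in the smallest library. Cryab, Hspb1 and Hspb8 were the only small heat shock transcripts among those counted that averaged above 5 CPM.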

How the data were processed

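RNA-seq libraries of YAMC cells, 3 treated with 2'-FL and 3 untreated, were analysed from the authors' deposited files of raw, unnormalized counts of each gene. The labels' protocols describe a Qiagen RNeasy extraction of total RNA followed by NEBNext Ultra II RNA library preparation. Tools named in the submitters' processing notes are FastQC 0.11.9, bcl2fastq and Bowtie2 (given as 2.7.3a). The notes give GRCh38 as the build, while the files list mouse genes: 53499 of 54532 have the start and end of the GENCODE mouse annotation of GRCm38, used here. How RNA was selected, whether strand was used and which program counted reads are not stated in the labels or notes.

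Counts were filtered (filterByExpr, minimum count 10, 14129 genes), TMM-scaled and compared by edgeR 4.0.16 quasi-likelihood tests in R 4.3.3, without robust estimation, with Benjamini-Hochberg adjustment over all genes and a threshold of 0.05. SEs follow from each fold change and its F value. FPKM used the gene length in the files. Alternatives were other scalings and filters, DESeq2 1.42.0, limma-voom (limma 3.58.1), robust estimation, a replicate block, another length and each library left out. The members, classes and lists were chosen with earlier results of these data known. Values in every library are given for 15 listed genes and for the 3 smallest p-values in each direction. Intervals are at 95% and unadjusted for the number of genes.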

Additional observations from a re-analysis of the deposited data

How the results depend on the processing

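Over 16 alternatives, 1 call was gained among the 32 genes: without a filter on low counts, Cryab passed (adjusted p = 0.0219), so that 1 of the 32 genes passed, and 158 of all genes. All genes passing numbered 37 by DESeq2, 5 with robust estimation, 1 with the replicate block and 0 to 28 when single libraries were left out. Chaperone genes at an unadjusted p under 0.05 numbered 1 by DESeq2, by library total, without a filter, with the replicate block and without both libraries that stood apart, and 1 to 4 with single libraries left out. Genes whose groups did not overlap numbered 3 by library total or upper-quartile scaling, 4 without a filter, 10 without both libraries that stood apart (chosen after seeing the data), and 3 to 7 with single libraries left out, where smaller groups overlap less readily. Shares over all genes are not given for these alternatives. These counts and those at an unadjusted p therefore show nothing particular to the 32 genes. Genes below 0 numbered 6 to 14 with single libraries left out, and the median log2 fold change then ran from 0.0018 to 0.06. With the longest transcript as length, the median levels were 35.2, 81.1 and 99.2 FPKM for inducible, heat-raised and constitutive genes. Under another scaling, filter or tool, these signs turned: Hspa4 to 0.0027 by RLE size factors, 0.0074 without a filter and 0.0028 by DESeq2, Chordc1 to 0.0041 without a filter, Dnaja1 to -0.0075 and Cct4 to -0.0089 by library total, and Cct4 to -0.00093 with the 1 CPM filter. Without both libraries that stood apart, Hsp90ab1 came to -0.012, Dnaja1 to -0.022, Hspe1 to 0.10, Chordc1 to 0.034, Cct3 to -0.0098 and Cct7 to -0.0089. With single libraries left out, signs turned within these ranges: Hspa1a -0.90 to 0.0091, Hspa4 -0.074 to 0.050, Hsp90aa1 -0.016 to 0.082, Hsp90ab1 -0.040 to 0.061, Hsph1 -0.10 to 0.16, Dnajb1 -0.0086 to 0.050, Dnaja1 -0.031 to 0.033, Dnaja2 -0.047 to 0.030, Hspb1 -0.084 to 0.035, Hspd1 -0.062 to 0.10, Hspe1 -0.17 to 0.067, Chordc1 -0.021 to 0.027, Fkbp4 -0.010 to 0.12, Cct3 -0.025 to 0.047, Cct4 -0.040 to 0.033 and Cct7 -0.030 to 0.046. The cause of these turns was not tested. Hspa1a was not tested under the 1 CPM filter or without both libraries that stood apart, which leaves it 14 alternatives. Same-numbered libraries correlated at -0.32, -0.24 and -0.12 in their deviations, and other pairs of a 2'-FL and a control library at -0.13 to 0.35. These values gave no sign of pairing by number, but they cannot show how the libraries were made. The replicate block changed no call among the 32 genes. At 3 against 3 libraries, SEs of 0.06 to 0.11 for 31 genes set the size that could be told from 0.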
